A study of Mus musculus with 6 samples.

Results

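Long intergenic noncoding RNAs (lincRNAs) are transcripts without an annotated protein product whose genes lie between those of proteins. In the count table of this study, 184 of 5624 genes that the GENCODE M21 mouse annotation classes as lincRNA were taken as expressed. They were chosen by their level, a mean of at least 1 CPM (the count divided by the library's total and multiplied by 1000000) over all 6 libraries. The mean runs over both groups, so a lincRNA can reach it through 1 group: 9 lincRNAs were below 1 CPM in the DMSO libraries alone, 5 were below it in the Cpd10 libraries alone, and 170 were at or above it in both. Of the other lincRNA genes, 4313 had no count in any library. The 3 lincRNAs just inside the limit were 2610037D02Rik, Gm15706 and Gm28874, at 1.05, 1.02 and 1.02 CPM, and the 3 just outside were 5033430I15Rik, 1700086O06Rik and E230014E18Rik, at 0.9998, 0.988 and 0.959 CPM.

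The RNA came from mouse splenic B cells that the labels call naive and that were cultured over 5 days with 80 ng/ml of interleukin 4 plus 5 µg/ml of anti-CD40 antibody as activators. In the Cpd10 group (3 libraries, A to C) the medium held 1 µM Cpd10, labelled as inhibiting FOXO1, a transcription factor, from day 3 until harvest on day 5, a span of 48 hours. In the DMSO group (3 libraries, A to C) it held the solvent alone for the same time. Per the series' design text, cells of 10 male mice aged 3 months, immunised with sheep red blood cells 9 days before and used in 2 independent experiments, were sorted as naive B cells and pooled before culture. The meaning of the replicate letters is not labelled, and the p-values therefore describe only library-to-library spread, which may be technical. The question read here is which lincRNAs differ in these cells under the FOXO1 inhibitor.

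Library totals ran from 36873204 to 44859930 counts. A division that the labels do not give cut across the treatment: Cpd10 A, DMSO A and DMSO C formed set 1, and Cpd10 B, Cpd10 C and DMSO B formed set 2. Foxo1, the named target, was at 130, 114 and 111 CPM in the Cpd10 libraries and at 137, 122 and 155 CPM in the DMSO libraries, and its log2 fold change was -0.22 (edgeR adjusted p = 0.711); an inhibitor of the protein need not change its mRNA. The summed level of 7 B cell markers was 4142 to 5316 CPM in Cpd10 and 4833 to 5146 CPM in DMSO. Markers of other cells were low: 6 T cell markers summed to 0.617 to 1.01 CPM in Cpd10 and 1.05 to 1.71 CPM in DMSO, 4 fibroblast and endothelial markers (Col3a1 at 0) to 4.93 to 6.08 CPM in Cpd10 and 11.3 to 20.5 CPM in DMSO, and 5 myeloid markers to 8.76 to 15.4 CPM in Cpd10 and 14.2 to 21.9 CPM in DMSO. The sum was 1.98 to 6.14 CPM in Cpd10 and 3.58 to 9.53 CPM in DMSO for 3 NK cell markers (Ncr1 at 0), and 2.25 to 3.04 CPM in Cpd10 and 0 to 0.220 CPM in DMSO for 4 erythroid markers (Hba-a1 and Hba-a2 at 0). The 4 plasma cell markers summed to 1560 to 2195 CPM in Cpd10 and 1521 to 3740 CPM in DMSO. The part of these differences in the results below was not tested. In bulk RNA, fewer cells of a type and less RNA per cell cannot be told apart.

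Most lincRNAs are made by RNA polymerase II, and many are capped, spliced and polyadenylated like mRNAs. Some act in the nucleus as scaffolds of nuclear bodies or of chromatin regulators, some are mainly hosts whose introns or exons are cut into microRNAs (miRNAs) or small nucleolar RNAs (snoRNAs), and some affect a neighbouring gene on the same chromosome. In B cells the best studied are the hosts of miR-142, which is made almost only in blood cells, of miR-155, which is induced on activation and is needed for germinal centre responses in mice, and of the miR-17 cluster, which restrains the pro-apoptotic gene Bcl2l11 (BIM) in mouse lymphocytes.

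The mature miRNAs of the first 2 hosts are shown because both hosts were called higher in Cpd10 once the library set was a term in the fit, a call that was lost when any 1 Cpd10 library or DMSO B was left out. The sequences are from RefSeq (GRCm38.p6), with the seed, bases 2 to 8 that pair with target mRNAs, in capitals; no seed is shared among the 4.
miR-142a-5p: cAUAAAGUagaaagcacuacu
miR-142a-3p: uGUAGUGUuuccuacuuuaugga
miR-155-5p: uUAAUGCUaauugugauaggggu
miR-155-3p: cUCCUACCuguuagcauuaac
Both miR-142a arms lie in Mir142hg, at chr11:87756867-87756887 and chr11:87756903-87756925 on the plus strand, and both miR-155 arms in Mir155hg, at chr16:84714143-84714165 and chr16:84714182-84714202 on the plus strand. The libraries measured the polyadenylated host transcripts, not the mature miRNAs.

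No lincRNA passed the test of Cpd10 against DMSO. EdgeR's quasi-likelihood test with Benjamini-Hochberg adjustment over all 15136 tested genes called 0 of the 184 lincRNAs, against 0.370% of all tested genes; limma-voom also called 0. At an unadjusted p below 0.05 stood 13 lincRNAs, or 7.07%, against 8.39% of all tested genes. The lowest adjusted p was 0.133 (AU015791). The median log2 fold change (Cpd10 minus DMSO) of the lincRNAs was 0.033 and that of all tested genes -0.0012. Their log2 fold changes ran from -2.71 (Gm6093) to 3.92 (Gm4926), 102 were above 0 and 82 below, 4 lincRNAs were at least 2-fold higher and 5 at least 2-fold lower in Cpd10, and 158 lay within 1.5-fold either way. The median SE was 0.35 for the lincRNAs and 0.21 for all tested genes.

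**Figure D1:**
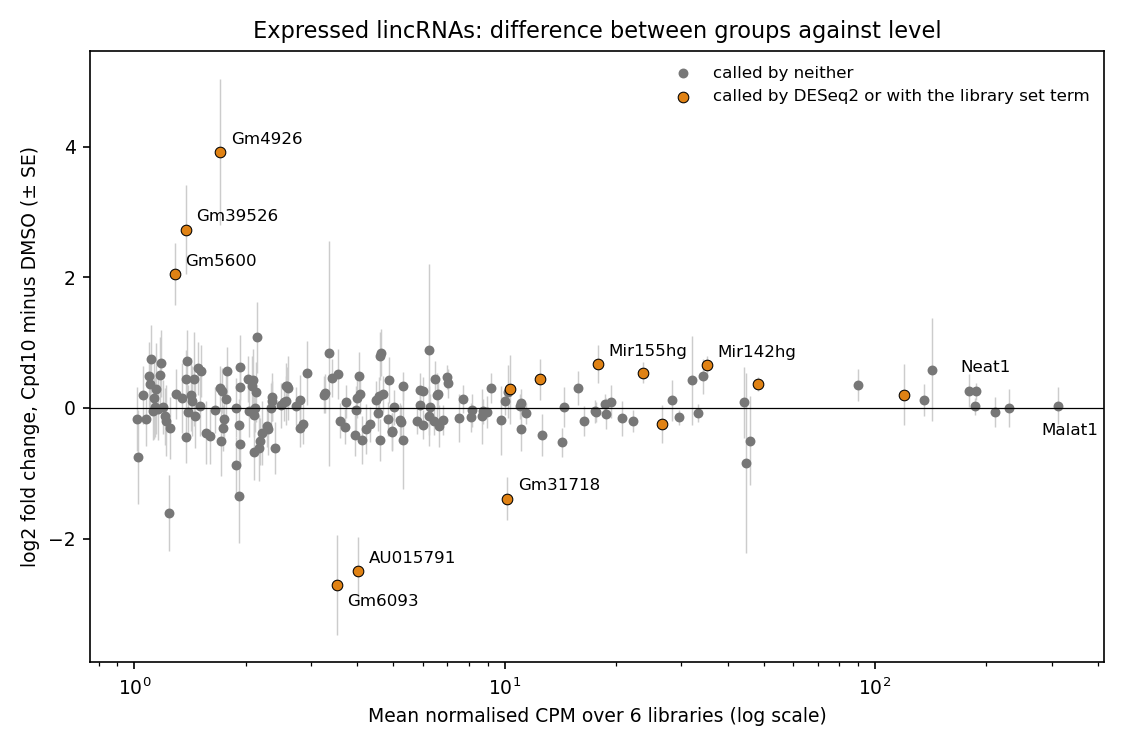
Each point is 1 of the 184 lincRNAs, with its mean normalised CPM over 6 libraries (horizontal, log scale) and its log2 fold change, Cpd10 minus DMSO, ± SE (vertical). Orange points are the lincRNAs called by DESeq2 or by edgeR with the library set as a term; the largest differences, from -2.71 (Gm6093) to 3.92 (Gm4926), belong to lincRNAs at a few CPM.

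Other fits called a few. DESeq2, without a filter on low counts, called 4 lincRNAs higher in Cpd10, or 2.19% of the 183 to which it gave a p-value. The share of all genes to which it gave one was 0.817%. It called 3 lincRNAs lower, or 1.64% against 0.602%. EdgeR without the filter called 3 lincRNAs, or 1.63% against 0.773% of all genes, and DESeq2 called the same 3: Mir142hg, Gm39526 and AU015791. The shares of all genes in these fits are over 25082 and 25099 genes, which include genes far below 1 CPM. DESeq2 gave some of those no adjusted p, so they could not be called. Shares of lincRNAs and of all genes are therefore not like for like in these fits. With the library set as a term, edgeR called 10 lincRNAs higher in Cpd10, or 5.43% against 2.32% of all tested genes, and 3 lower, or 1.63% against 1.64%. That term was picked from the same counts, so its p-values are exploratory. It called 6 of the 7 lincRNAs of DESeq2. Of the 10 lincRNAs called higher with it, Gm4926, Gm39526 and Gm5600 reached the minimum of 1 CPM only through their Cpd10 libraries, so the choice favoured a difference in that direction, and the shares are not read as support; these 3 are also among the 4 that DESeq2 called higher. Of the 3 lincRNAs that DESeq2 called lower, Gm6093 reached the minimum only through its DMSO libraries. The 13 calls with the set term also rest on single libraries: 1, 2 and 3 of them remained without Cpd10 A, B and C, and 13, 3 and 7 without DMSO A, B and C. Only Gm4316 was called in all 6 of these fits. The 3 Cpd10 libraries lay above the 3 DMSO libraries for 12 lincRNAs, or 6.52% against 7.31% of all tested genes, and below them for 5, or 2.72% against 7.31%. For the 14 lincRNAs called by DESeq2 or with the set term, the adjusted p of edgeR without that term ran from 0.133 to 0.950.

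**Figure D2:**
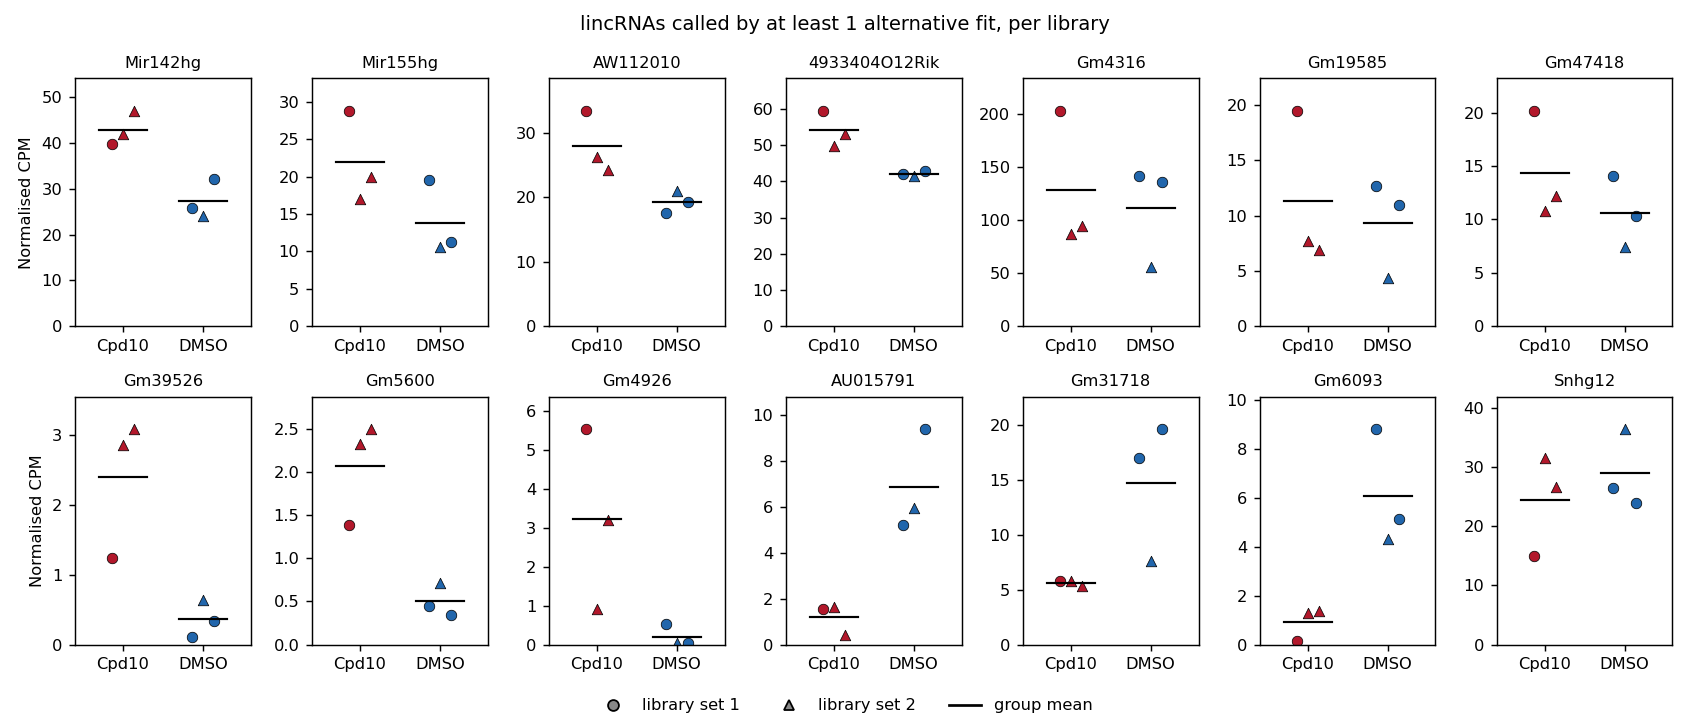
Normalised CPM (vertical, from 0) of the 14 lincRNAs called by DESeq2 or by edgeR with the set term, in each Cpd10 library (red, left) and DMSO library (blue, right), with circles for library set 1, triangles for set 2 and a line at the group mean. For 9 of them, Mir142hg, AW112010, 4933404O12Rik, Gm39526, Gm5600, Gm4926, AU015791, Gm31718 and Gm6093, the groups do not overlap.

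Among the miRNA hosts, Mir142hg (chromosome 11, 87755577 to 87757270, plus strand, ENSMUSG00000084796) had 39.7, 42.1 and 47.1 CPM in the Cpd10 libraries and 25.8, 24.04 and 32.2 CPM in the DMSO libraries. Every Cpd10 library was above every DMSO library, in both sets. The group means were 43.0 ± 3.76 CPM in Cpd10 and 27.4 ± 4.27 CPM in DMSO (SD, n = 3 each), and the log2 fold change was 0.65 (SE 0.14, edgeR adjusted p = 0.153). The adjusted p was 0.0142 with the set term, 0.022 by DESeq2 and 0.0486 without the filter. With the set term it was 0.0598, 0.0578 and 0.0819 without Cpd10 A, B and C, and 0.226 without DMSO B.

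Mir155hg (chromosome 16, 84703167 to 84715245, plus strand, ENSMUSG00000097418), the transcript also known as BIC, had 28.8, 17.03 and 19.9 CPM in Cpd10 and 19.5, 10.6 and 11.3 CPM in DMSO. The groups overlapped, because DMSO A lay above Cpd10 B. Within set 1, Cpd10 A at 28.8 CPM stood above DMSO A and C at 19.5 and 11.3 CPM, and within set 2, Cpd10 B and C at 17.03 and 19.9 CPM stood above DMSO B at 10.6 CPM. On the log2 scale the groups differed by 0.67 (SE 0.29; edgeR, adjusted p = 0.613) and by 0.85 once the set was a term (SE 0.20, adjusted p = 0.0399). With the set term, edgeR's adjusted p was 0.555, 0.0962 and 0.165 without Cpd10 A, B and C, and 0.199 without DMSO B.

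Mir17hg, which carries 6 miRNA hairpins of the miR-17 cluster, had 10.4, 10.8 and 11.97 CPM in Cpd10 and 11.7, 12.3 and 3.82 CPM in DMSO. DMSO C alone was low, and the log2 fold change was 0.25 (SE 0.41, edgeR adjusted p = 0.921). RefSeq places hairpins on the strand of 9 expressed lincRNAs in all: besides these 3, they are Ftx, Snhg20, 2900076A07Rik, 6720427I07Rik (Mirlet7a-1, Mirlet7d and Mirlet7f-1), Gm37233 and 4833445I07Rik (Mir191 and Mir425). Only Mir142hg and Mir155hg among the 9 were called with the set term. Mirt1 stands on the list of miRNA hosts used here but holds no RefSeq hairpin on its strand. Its level followed the library sets, at 18.2, 59.4 and 59.4 CPM in Cpd10 and 24.7, 67.4 and 37.2 CPM in DMSO. Within each set, the Cpd10 libraries of Mirt1 were below the DMSO libraries. The log2 fold change was 0.083 (SE 0.55, edgeR adjusted p = 0.982) without the set term and -0.47 (SE 0.20, adjusted p = 0.317) with it. Of the 6 tested genes of that list, lincRNA or not, edgeR called 0 without the set term, 1 had an unadjusted p under 0.05, and the median log2 fold change was 0.28.

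AW112010 (chromosome 19, 11047612 to 11055808, minus strand, ENSMUSG00000075010), an endotoxin-induced RNA from which mouse macrophages make a small protein, had 33.4, 26.2 and 24.2 CPM in Cpd10 and 17.5, 20.9 and 19.2 CPM in DMSO. The groups did not overlap. Its log2 fold change was 0.54 (SE 0.16, edgeR adjusted p = 0.330; 0.0395 with the set term). Without Cpd10 A, the highest library, the log2 fold change with the set term was 0.28 against 0.57 with all libraries, at an adjusted p of 0.771 by edgeR. That call was also lost without Cpd10 B, Cpd10 C or DMSO C, at adjusted p of 0.107, 0.0857 and 0.0707.

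4933404O12Rik had 59.6, 49.8 and 53.2 CPM in Cpd10 and 42.0, 41.4 and 43.0 CPM in DMSO. The 3 DMSO libraries lay close together and below all 3 Cpd10 libraries. The log2 fold change, Cpd10 minus DMSO, was 0.36 (SE 0.11, edgeR adjusted p = 0.331; 0.0295 with the set term).

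Of the hosts of snoRNAs, which guide the chemical modification of ribosomal RNA, 4 were among the 184 lincRNAs: Snhg6, Snhg12, Snhg20 and Epb41l4aos. Snhg12 (chromosome 4, 132308623 to 132311024, plus strand, ENSMUSG00000086290) had 15.0, 31.5 and 26.6 CPM in Cpd10 and 26.4, 36.4 and 24.0 CPM in DMSO. The groups overlapped, while within each set the Cpd10 libraries were below the DMSO libraries. The value on the log2 scale was -0.25 (SE 0.29; edgeR, adjusted p = 0.895), whereas the set term gave -0.53 (SE 0.14, adjusted p = 0.0470). Snhg6, at 21.9, 35.0 and 31.2 CPM in Cpd10 and 23.9, 39.7 and 17.7 CPM in DMSO, differed by 0.12 on the log2 scale (SE 0.31, edgeR adjusted p = 0.957). Snhg6, Snhg12 and Epb41l4aos were higher in every library of set 2 than in any of set 1. For Snhg12 the margin was narrow, with 26.6 CPM in Cpd10 C (set 2) and 26.4 CPM in DMSO A (set 1). Over the whole snoRNA host list, 15 genes were tested, edgeR called 0, none had an unadjusted p under 0.05, and the median log2 fold change was 0.031.

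For the nuclear RNAs among the 184, the groups as a whole overlapped. Malat1, a component of nuclear speckles, had 377, 220 and 352 CPM in Cpd10 and 259, 236 and 432 CPM in DMSO, a difference of 0.035 on the log2 scale (SE 0.29, edgeR adjusted p = 0.986). Neat1, the scaffold of paraspeckles, had 186, 190 and 212 CPM in Cpd10 and 111, 143 and 235 CPM in DMSO, with a log2 fold change of 0.26 (SE 0.26, adjusted p = 0.871). In both, the highest DMSO library was DMSO C, which stood above all Cpd10 libraries. Jpx and Ftx, from the X inactivation centre, had log2 fold changes of 0.0050 (SE 0.37) and 0.015 (SE 0.31). Pvt1, a lincRNA next to Myc, had 5.26, 11.96 and 12.2 CPM in Cpd10 and 12.1, 14.4 and 10.5 CPM in DMSO (log2 fold change -0.33, SE 0.32, edgeR adjusted p = 0.871). Within each library set, the Cpd10 libraries were below the DMSO libraries for Pvt1 and above them for Ftx. With the set term, the log2 fold changes were -0.67 (SE 0.21, edgeR adjusted p = 0.113) for Pvt1 and 0.27 (SE 0.16, adjusted p = 0.472) for Ftx. Xist, which coats the inactive X chromosome of female cells, was not among the 184, with 40 counts over all libraries. EdgeR called 0 of the 8 tested genes on the list of nuclear RNAs, with or without the set term, 0 of the 6 on that of p53-linked RNAs, 0 of the 3 on that of immune RNAs and 0 of the 3 on that of the Foxo genes and Foxo6os, of which none was among the 184. Genes were looked up by symbol, so the immune count leaves out Cyrano, which was listed under that name. Its values, given below, were not called either.

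Norad (2900097C17Rik), which binds PUMILIO proteins and helps keep chromosome number stable, was at 215, 170 and 179 CPM in Cpd10 and 196, 159 and 200 CPM in DMSO (log2 fold change 0.022, SE 0.13, edgeR adjusted p = 0.981). Cyrano (1700020I14Rik), known in mice for directing the decay of miR-7, had 236, 184 and 191 CPM in Cpd10 and 160, 159 and 193 CPM in DMSO (log2 fold change 0.25, SE 0.13, adjusted p = 0.708). Lockd, which lies downstream of the cell cycle inhibitor gene Cdkn1b, had 9.38, 6.89 and 4.79 CPM in Cpd10 and 7.09, 3.93 and 7.34 CPM in DMSO (log2 fold change 0.20, SE 0.34, adjusted p = 0.927). The groups overlapped for all 3, while within each library set the Cpd10 libraries were above the DMSO libraries. With the set term, the log2 fold change was 0.13 for Norad (SE 0.077, edgeR adjusted p = 0.485) and 0.47 for Lockd (SE 0.22, adjusted p = 0.324). Cyrano was not called with that term either.

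Morrbid (Gm14005, chromosome 2, 128178319 to 128502765, minus strand) is known to repress the neighbouring gene Bcl2l11 in short-lived mouse myeloid cells. It had 7.31, 10.0 and 8.96 CPM in Cpd10 and 6.58, 10.8 and 9.99 CPM in DMSO, and the groups overlapped (log2 fold change -0.057, SE 0.24, edgeR adjusted p = 0.971). Bcl2l11, whose annotated end is 15.8 kb away, rose in Cpd10, at 302, 289 and 290 CPM against 158, 152 and 158 CPM in DMSO (log2 fold change 0.91, SE 0.084, edgeR adjusted p = 0.0125).

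The lincRNAs with the largest differences between the groups had clone names. AU015791 (chromosome 12, 105513480 to 105515246, plus strand, ENSMUSG00000113535) had 1.56, 1.62 and 0.426 CPM in Cpd10 and 5.19, 5.94 and 9.36 CPM in DMSO. Behind these values stood 71, 64 and 16 counts in Cpd10 and 232, 216 and 385 counts in DMSO. The groups did not overlap, and the log2 fold change was -2.50 (SE 0.52, edgeR adjusted p = 0.133; 0.0285 with the set term, 0.0204 without the filter and 1.22e-05 by DESeq2).

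Gm31718 (chromosome 8, 126812640 to 126908215, minus strand) had 5.77, 5.75 and 5.32 CPM in Cpd10 and 16.9, 7.62 and 19.6 CPM in DMSO. The Cpd10 libraries were nearly equal and lay below all DMSO libraries, of which DMSO B, the only one in set 2, was the lowest. The log2 fold change was -1.39 (SE 0.33, edgeR adjusted p = 0.211; 0.0466 with the set term and 0.00219 by DESeq2). Without DMSO replicate B it was the 1 lincRNA that edgeR called (adjusted p = 0.0182).

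Gm6093 (chromosome 13, 33562486 to 33569317, minus strand) had 0.132, 1.29 and 1.38 CPM in Cpd10 and 8.82, 4.32 and 5.15 CPM in DMSO, from 6, 51 and 52 counts in Cpd10 and 394, 157 and 212 counts in DMSO. Cpd10 A was far below the others. Its log2 fold change was -2.71 (SE 0.76, edgeR adjusted p = 0.325; 0.217 with the set term and 0.00070 by DESeq2).

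Gm5600 (chromosome 7, 113700890 to 113708442, minus strand) had 1.39, 2.33 and 2.50 CPM in Cpd10 and 0.448, 0.715 and 0.340 CPM in DMSO. The groups did not overlap, from 63, 92 and 94 counts in Cpd10 and 20, 26 and 14 counts in DMSO. The log2 fold change was 2.05 (SE 0.48, edgeR adjusted p = 0.186; 0.0436 with the set term and 0.00773 by DESeq2).

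Gm4316 (chromosome 8, 123165255 to 123178765, plus strand, ENSMUSG00000110537) was higher in Cpd10 within each library set, while the groups as a whole overlapped. It had 203, 87.0 and 94.2 CPM in Cpd10 and 142, 55.3 and 136 CPM in DMSO. Within set 1, Cpd10 A at 203 CPM was above DMSO A and C at 142 and 136 CPM, and within set 2, Cpd10 B and C at 87.0 and 94.2 CPM were above DMSO B at 55.3 CPM. Without the set term the groups differed by 0.20 on the log2 scale (SE 0.47; edgeR, adjusted p = 0.950), and with it by 0.63 (SE 0.084, adjusted p = 0.00102). A stretch of 788 bases in Gm4316 is 99.4% identical to part of Miga1, a gene of mitochondrial fusion, so its reads could be shared; Miga1 had a log2 fold change of -0.0034 (SE 0.10).

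Gm19585 and Gm47418 behaved likewise. Gm19585 (chromosome 17, 51986415 to 52163976, plus strand) had 19.5, 7.65 and 6.86 CPM in Cpd10 and 12.7, 4.32 and 10.9 CPM in DMSO, and its log2 fold change was 0.28 (SE 0.53; edgeR, adjusted p = 0.934) without the set term and 0.73 (SE 0.17, adjusted p = 0.0319) with it. Gm47418 had 20.2, 10.7 and 12.2 CPM in Cpd10 and 14.03, 7.40 and 10.3 CPM in DMSO, with log2 fold changes of 0.44 (SE 0.31; edgeR, adjusted p = 0.806) without the set term and 0.68 (SE 0.17, adjusted p = 0.0444) with it. In both, the highest library was Cpd10 A, of set 1.

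Each lincRNA was then set beside the genes around it. Within 100 kb of an annotated end, 5 lincRNAs had a gene that edgeR called without the set term: Gm14005 (Bcl2l11, above), Mir142hg (Rnf43), Gm39526 and Gm26617 (Zxdb) and Gm4926 (Timd2 and Havcr1). These 5 lincRNAs are 2.72% of the 184, and 1.18% of all tested genes had another called gene that near. All 5 of the neighbouring genes rose in Cpd10, as did 48 of the 56 genes called in all. Of all tested genes, the fit with the set term called 2.32% higher and 1.64% lower in Cpd10. Within 100 kb of a lincRNA it called 33 genes, 19 higher and 14 lower, but the number tested that near was not counted. Among those lower were Bcl11a, which encodes a transcription factor needed for B cell development (log2 fold change with the set term -0.50, edgeR adjusted p = 0.00750), Cd55, which encodes a complement regulator (-0.88, adjusted p = 0.00156), and Gimap3, Gimap5, Gimap6 and Gimap7.

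Mir142hg lies between 2 genes on its own strand. Rnf43, which encodes a ubiquitin ligase that lowers Wnt receptors and ends 20.04 kb before Mir142hg, rose, at 24.3, 23.4 and 27.7 CPM in Cpd10 against 6.38, 10.5 and 10.4 CPM in DMSO (log2 fold change 1.47, SE 0.21, edgeR adjusted p = 0.0471). Tspoap1, which starts 3.27 kb after the end of Mir142hg, had 23.4, 36.7 and 34.4 CPM in Cpd10 and 8.75, 18.8 and 13.98 CPM in DMSO (log2 fold change 1.19, SE 0.30, adjusted p = 0.254; 0.00687 with the set term). The Cpd10 libraries lay above the DMSO libraries for all 3 genes.

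On chromosome X, Gm39526 (94731399 to 94745359, plus strand, ENSMUSG00000109459) begins 1211 bases after the end of Zxdb, a zinc finger gene on the same strand. Gm39526 had 1.23, 2.86 and 3.08 CPM in Cpd10 and 0.112, 0.633 and 0.340 CPM in DMSO, from 56, 113 and 116 counts in Cpd10 and 5, 23 and 14 counts in DMSO. Its log2 fold change was 2.73 (SE 0.69, edgeR adjusted p = 0.240; 0.0198 with the set term and 0.00219 by DESeq2). Zxdb rose, at 52.6, 47.1 and 54.1 CPM in Cpd10 against 20.9, 25.7 and 21.7 CPM in DMSO (log2 fold change 1.17, SE 0.13, edgeR adjusted p = 0.0182). Gm26617, further along the same strand, had 7.99, 8.97 and 7.42 CPM in Cpd10 and 5.62, 5.94 and 6.01 CPM in DMSO (log2 fold change 0.47, SE 0.19, adjusted p = 0.555). The Cpd10 libraries lay above the DMSO libraries for these 3 genes too, but 2043 bases of Gm26617 are 100% identical to Zxdb, so its reads cannot be assigned with certainty.

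On chromosome 11, Gm4926 (46636516 to 46645006, minus strand, ENSMUSG00000086909) begins 23.95 kb from the end of Timd2 and 90.1 kb from Havcr1, which encode TIM family surface receptors. RefSeq's gene type for Gm4926 is a transcribed pseudogene. Gm4926 had 5.53, 0.912 and 3.19 CPM in Cpd10 and 0.537, 0.0275 and 0.0486 CPM in DMSO, from 251, 36 and 120 counts in Cpd10 and 24, 1 and 2 counts in DMSO. The DMSO libraries lay below the Cpd10 libraries, and the 3 Cpd10 libraries were themselves far apart. The difference of 3.92 on the log2 scale (SE 1.12, edgeR adjusted p = 0.337; 0.0470 with the set term and 0.000631 by DESeq2) rests on very few DMSO counts. Timd2 rose, at 473, 513 and 611 CPM in Cpd10 against 220, 166 and 136 CPM in DMSO (log2 fold change 1.62, SE 0.19, edgeR adjusted p = 0.0262), as did Havcr1, at 372, 316 and 362 CPM in Cpd10 against 154, 110 and 118 CPM in DMSO (log2 fold change 1.45, SE 0.15, adjusted p = 0.0159).

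Over all lincRNAs, the nearest protein-coding gene was found by the distance between annotated starts, whose median was 19.3 kb. For 55 lincRNAs it was within 5 kb, and 45 of these stood head to head with that gene, on the other strand and pointing outward. The rule for head to head also admits pairs that overlap at their starts. For 137 lincRNAs the nearest gene lay within 100 kb and was tested too. Across these 137 pairs, the log2 fold changes of lincRNA and gene had a Pearson r of 0.42 and a Spearman rho of 0.35, and 87 pairs had the same sign. With the set term, r was 0.43, rho 0.43 and 86 pairs had the same sign. For the 44 tested head to head pairs within 5 kb, r was 0.36, rho was 0.40 and 26 pairs had the same sign. The pairs share their libraries, genes are not independent replicates, and the counting is not stated to have used strand, so these values are descriptions. One such pair is Gm11110, 617 bases from the start of Tnfsf9, which encodes the T cell costimulator 4-1BB ligand: Gm11110 had 4.69, 7.40 and 5.74 CPM in Cpd10 and 1.86, 3.82 and 4.23 CPM in DMSO (log2 fold change 0.85, SE 0.36; edgeR, adjusted p = 0.593). Tnfsf9 differed by 0.64 on the log2 scale (adjusted p = 0.599).

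**Figure D3:**
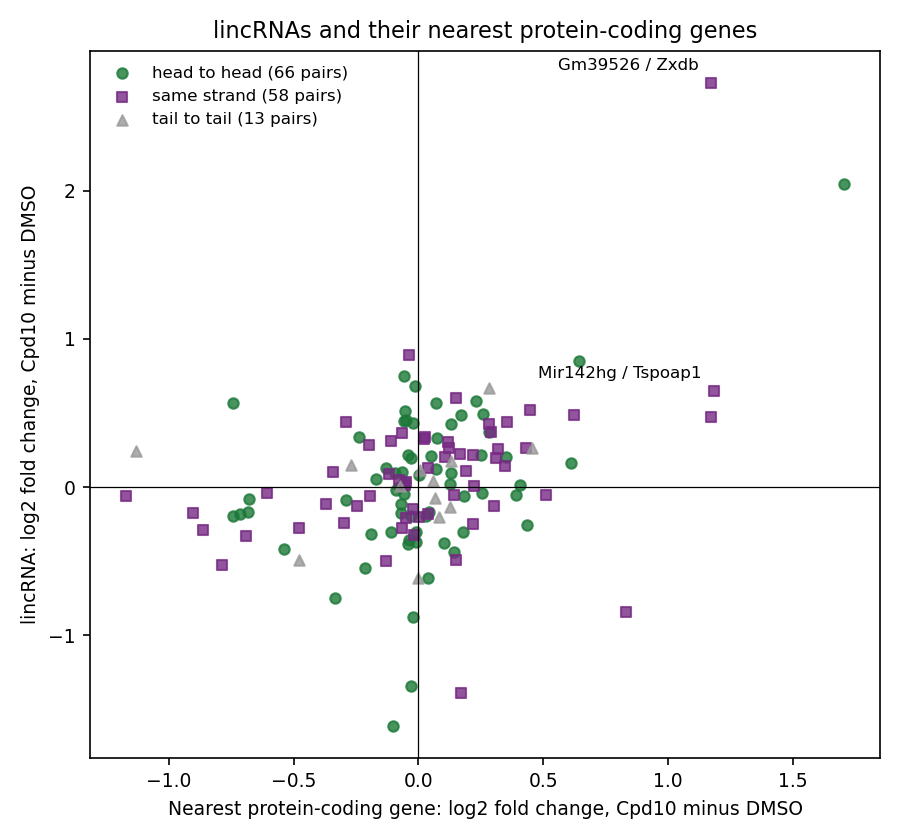
For 137 lincRNAs whose nearest protein-coding start lies within 100 kb, the log2 fold change (Cpd10 minus DMSO) of the lincRNA (vertical) is plotted against that of the gene (horizontal), by orientation. Pearson r is 0.42, and the pairs Gm39526 with Zxdb (2.73 and 1.17) and Mir142hg with Tspoap1 (0.65 and 1.19) lie at the upper right.

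Like all tested genes, lincRNAs differed more between the library sets than between Cpd10 and DMSO. With both terms in 1 model, the difference between the sets was larger than that between Cpd10 and DMSO for 109 of the 184, or 59.2%, and for 63.6% of all tested genes. The median absolute log2 difference of the lincRNAs was 0.27 between the groups and 0.38 between the sets, and that of all tested genes was 0.18 between the groups and 0.29 between the sets. Between the sets, 22 lincRNAs differed at least 2-fold, or 11.96% against 13.8% of all tested genes, with 14 higher and 8 lower in set 2. The split was chosen from these counts, so these values carry no test.

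Gm7292 had the largest difference, a log2 value of 5.30 (set 2 minus set 1). It had 0.0881 CPM in Cpd10 A, 6.06 in Cpd10 B, 6.76 in Cpd10 C, 0.313 in DMSO A, 6.79 in DMSO B and 0.146 in DMSO C. Gm7292 (chromosome 6, 117716342 to 117718868) has 2537 aligned bases that are 99.2% identical to Norad, whose own difference between the sets was -0.31. Gm42031 on chromosome 8 went the other way, with a log2 difference of -3.65. It had 83.7, 6.18 and 6.22 CPM in Cpd10 A, B and C, and 81.8, 7.15 and 84.1 CPM in DMSO A, B and C. In Gm42031, 748 aligned bases are 98.7% identical to Gm43305, itself at 1 CPM or more.

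Gm38414, also on chromosome 8, had 0.264, 11.0 and 13.1 CPM in Cpd10 and 1.86, 9.79 and 1.48 CPM in DMSO, a log2 difference between the sets of 3.66. Gm42047 had 58.8, 228 and 227 CPM in Cpd10 and 57.6, 230 and 55.2 CPM in DMSO, a log2 difference of 1.99. In Gm42047, 3209 aligned bases are 98.4% identical to Gm48362. Bc1, best known as a small cytoplasmic RNA of neurons, had 16.4, 48.9 and 44.8 CPM in Cpd10 and 14.5, 54.0 and 13.7 CPM in DMSO, a log2 difference of 1.73. In all 5, the 3 libraries of one set lay above the 3 of the other, whatever the treatment.

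**Figure D4:**
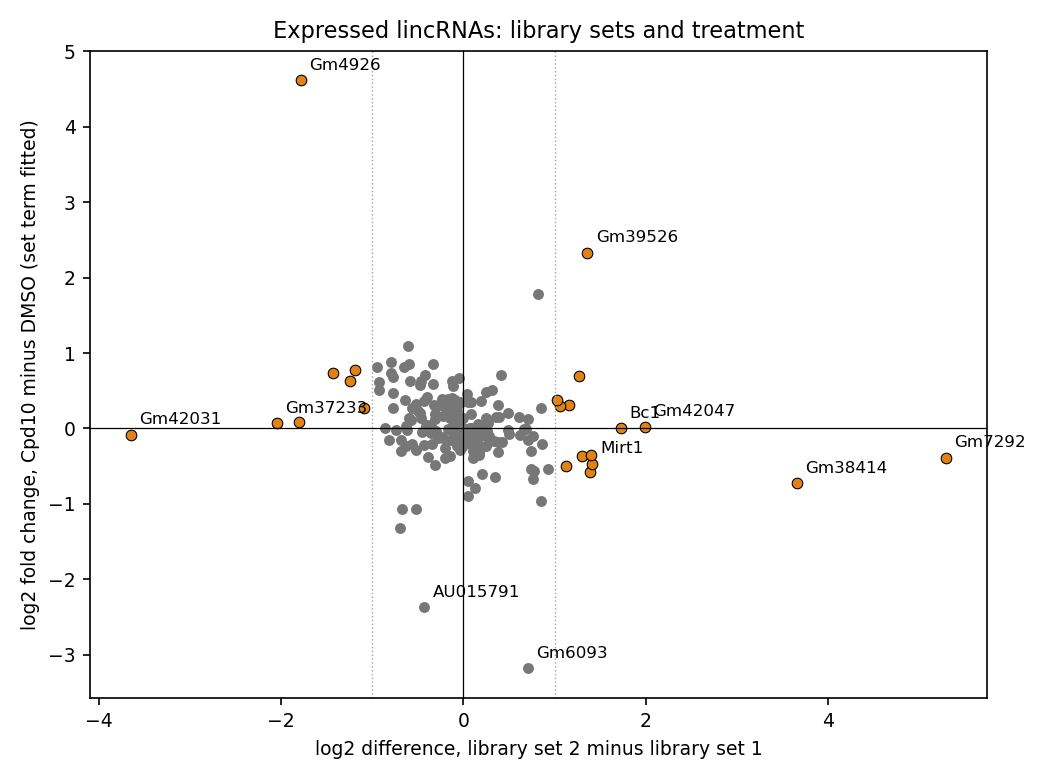
Each point is 1 of the 184 lincRNAs, with its log2 difference between library set 2 and set 1 (horizontal) and its log2 fold change, Cpd10 minus DMSO, from the fit with both terms (vertical). The 22 orange points differ at least 2-fold between the sets; Gm7292 (5.30) and Gm42031 (-3.65) lie far out along the horizontal axis, at -0.39 and -0.081 on the vertical one.

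The lincRNAs were expressed at lower levels than mRNAs. Their median level per length was 1.68 CPM per kb of exon, against 7.52 CPM per kb for the 10918 protein-coding genes at the same minimum of 1 CPM, and 29 of the 184 lay above that protein-coding median. The minimum cuts off both groups at the same CPM and not at the same level per length. Their median exon length was 2435 bases against 4573 bases, their median number of merged exons 3 against 10, and the median GC content of the longest transcript 46.3% against 49.7%; 33 lincRNAs had a single exon. By mean CPM, 52 lincRNAs were between 1 and 2, 58 between 2 and 5, 50 between 5 and 20, 15 between 20 and 100, and 9 at 100 or more. All lincRNAs together took 0.289% to 0.319% of the counts of the Cpd10 libraries and 0.278% to 0.320% of those of the DMSO libraries. Their summed level was 3152, 2994 and 3172 CPM in Cpd10 and 2765, 2817 and 3184 CPM in DMSO, and the groups overlapped.

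Per length, the highest lincRNA was Gm10076, at a mean of 234 CPM per kb and a range of 160 to 332 over the 6 libraries. It is a single exon of 384 bases, of which 383 align at 99.5% identity with Rpl41, a ribosomal protein gene, so part of its count could come from that mRNA. Next came Bc1 (191 CPM per kb, range 81.3 to 321), Gm5547 (171, range 121 to 223) and Mir142hg (131, range 89.4 to 175), and the ranges of these 4 overlap. Gm26917 (69.2 CPM per kb), which lies 11 bases from an annotated ribosomal RNA gene on the other strand, AU020206 (66.2), Malat1 (44.8) and AC102496.1 (38.8) completed the first 8, and among these 4 each range overlaps that of the next. Neat1, with 20771 bases of exon, was at 8.64 CPM per kb, although its CPM was among the highest.

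**Figure D5:**
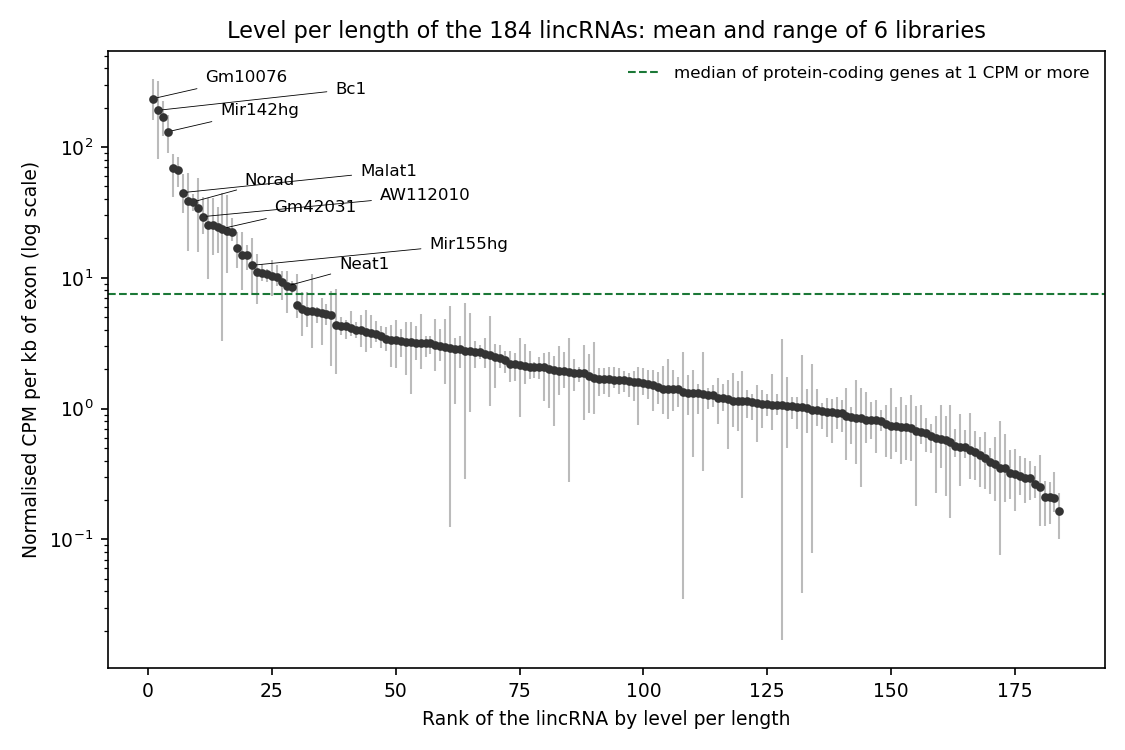
The 184 lincRNAs are ranked by mean normalised CPM per kb of exon (vertical, log scale), with a grey line from the lowest to the highest of the 6 libraries. The dashed line is the median of protein-coding genes at 1 CPM or more (7.52 CPM per kb), which 29 lincRNAs exceed; long grey lines belong to lincRNAs whose libraries lie far apart, such as Gm42031 between the library sets and Gm4926 between the groups.

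Near-identical copies and overlapping genes limit some of these counts. Of the 184 lincRNAs, 15 had a stretch of at least 150 bases that was at least 98% identical to a transcript of another gene elsewhere, and for 13 that other gene was itself at 1 CPM or more. Among the 22 lincRNAs that differed at least 2-fold between the sets, 5 had such a stretch. In the annotation, 71 lincRNAs overlapped another gene on the opposite strand and 44 one on the same strand.

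Promoters were searched for GTAAACA on either strand (TGTTTAC on the other), the core that FOXO factors bind. The windows were those of RefSeq (GRCm38.p6), 250 bases before to 50 bases after each start, and their starts can differ from those of GENCODE. At least 1 copy was found in 2 of 113 windows of 101 lincRNAs, or 1.77%, and in 3.65% of all 32851 windows. None of the 11 windows of the 10 lincRNAs that were called by DESeq2 or with the set term and had a window held it. For Gm19585, Gm31718, Mir155hg, Gm4316, AW112010 and Gm39526, however, the windows lay inside the GENCODE gene, away from its start. That of Gm5600 lay wholly before its gene. The motif was therefore not searched at the GENCODE starts of these lincRNAs. The 2 windows with the motif are shown with its letters in capitals.
Gm7967, chr1:98589267-98589566, plus strand: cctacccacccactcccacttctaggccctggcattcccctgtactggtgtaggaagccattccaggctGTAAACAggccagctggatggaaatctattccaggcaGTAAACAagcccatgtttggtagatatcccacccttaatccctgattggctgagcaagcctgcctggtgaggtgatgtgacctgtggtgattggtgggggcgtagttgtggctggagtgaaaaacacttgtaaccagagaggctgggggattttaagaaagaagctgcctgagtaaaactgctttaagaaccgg
Gm30211, chr6:70728963-70729262, plus strand: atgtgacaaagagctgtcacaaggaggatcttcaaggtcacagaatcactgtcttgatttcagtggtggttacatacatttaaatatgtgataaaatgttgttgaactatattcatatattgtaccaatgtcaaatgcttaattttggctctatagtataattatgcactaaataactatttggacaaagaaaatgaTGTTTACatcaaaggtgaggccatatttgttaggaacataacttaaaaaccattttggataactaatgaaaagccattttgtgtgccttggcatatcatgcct
The first window holds 2 copies and the second 1. Gm7967 had 1.14, 2.05 and 3.78 CPM in Cpd10 and 1.66, 1.87 and 1.99 CPM in DMSO, and Gm30211 had 29.8, 34.6 and 32.8 CPM in Cpd10 and 29.3, 33.97 and 39.0 CPM in DMSO. The groups overlapped for both, at log2 fold changes of 0.33 (SE 0.47; edgeR, adjusted p = 0.913) and -0.074 (SE 0.14, adjusted p = 0.934).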

How the data were processed

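One table of raw counts was deposited for the 6 libraries, whose totals were 36.9 to 44.9 × 1000000 counts. Among tools, the submitters' processing notes list featureCounts 2.0.6, STAR 2.7.10a and DESeq2, with the build GRCm38 (mm10). Libraries were strand-specific and poly A selected, per the labels' protocols; the sources used here do not give whether counting used strand. Of 54838 identifiers, 54809 were found in GENCODE M21, which gave gene types, symbols and coordinates.

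Counts were tested with edgeR 4.0.16 in R 4.3.3 (filterByExpr, which all 184 lincRNAs passed, TMM, robust quasi-likelihood, group as the only term). P-values were adjusted over all 15136 tested genes. Printed CPM use TMM library sizes, except in the choice of lincRNAs. SE was taken as the absolute log2 fold change over the root of F. Alternatives were DESeq2 1.42.0, limma-voom (limma 3.58.1), other scaling, no filter, each library left out, a replicate block and the library set as a term. For the set, every 3 against 3 split was scored by how many genes had at most 3 counts on one side and at least 50 on the other. The best split, with 9 such genes, was taken. The split by treatment had 1 such gene and every other split 0. Libraries of 1 group differed beyond counting noise (chi-square per degree of freedom 12.3 to 176), so each was counted as 1 sample; whether they came from separate cultures is not labelled. Near-identity was searched with BLAST+ 2.17.0. The edgeR fit with group as the only term was also run on simulated counts. Those had less spread between libraries than fitted here and no library sets, so they do not test the calls made here.

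The lincRNAs, gene lists and naming rule were chosen with earlier results of these data known. The rule named lincRNAs on the lists, the 8 highest per length, those around the limit of 1 CPM, any called by the test, and the 10 with the smallest p among those called with the set term. Gm4926, Gm31718, Gm6093, Gm26617, Gm11110, the 2 with the motif, those named for library sets or copies, and the neighbouring genes were picked with their values in view.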

Additional observations from a re-analysis of the deposited data

How the results depend on the processing

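The count of all tested genes called was 56, and 59 with RLE scaling, 54 with library totals alone, 50 by limma-voom and 49 with the replicate block. It was 194 without the filter, 356 by DESeq2 and 599 with the library set term. The count of lincRNAs called was 0, and also 0 under RLE scaling, library totals, limma-voom, the block, and CPM minimums of 0.5 (275 lincRNAs) and 2 (132 lincRNAs). It was 3 without the filter, 7 by DESeq2 and 13 with the set term. Leaving out 1 library gave 0 to 100 genes and 0 to 1 lincRNAs without the set term. All genes fell to 1 and 0 without Cpd10 B and C, and to 5 and 1 without DMSO A and C, and were 77 without Cpd10 A and 100 without DMSO B. With the set term, an alternative chosen after seeing the data, leaving out 1 library gave 130, 343 and 225 genes (Cpd10 A, B and C) and 907, 437 and 622 (DMSO A, B and C). The lincRNAs were 1, 2 and 3 without Cpd10 A, B and C, and 13, 6 and 9 without DMSO A, B and C, and Gm4316 was called in all 6. Same-lettered libraries deviated together for A and B (r = 0.309 and 0.432) and not for C (-0.315), so the letters were not taken as pairs. Of 33 named lincRNAs, 15 kept the sign of their fold change in every alternative. The cause of these changes was not tested. Depth limits the lincRNAs near 1 CPM most: Gm4926 rests on 24, 1 and 2 counts in the DMSO libraries.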
